A study of Sus scrofa with 30 samples.

Results

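The imprinted DLK1-DIO3 region holds one of the largest clusters of miRNA hairpins known in placental mammals. The members examined here were the annotated small RNA sequences of porcine endometrium whose name carried 1 of 39 hairpin names of that cluster, from miR-127 and miR-136 to miR-495, miR-655 and miR-758. Of the 873 sequences annotated in the study, 41 met this rule. They came from 15 of the 39 hairpin names searched and fell into 17 hairpins and 20 arms, an arm being the mature product of one side of a hairpin. Most were isomiRs, which are reads of 1 arm that differ in their ends, and 9 of the 41 carried the name of a mature miRNA. Reads of the cluster hairpins outside the annotated set were not analysed here.

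Small RNA libraries were made from endometrium of crossbred Hampshire x Duroc gilts, 7 to 8 months old and of one herd. Pregnant gilts had been inseminated and were sampled on D12 (PD12, n = 5), D16 (PD16, n = 5) and D20 (PD20, n = 6). Cyclic gilts were sampled on the same days of the estrous cycle (CD12, n = 4, CD16, n = 5 and CD20, n = 5). Pregnancy required at least 4 conceptuses, which were flushed from the uterus up to D16, whereas PD20 endometrium was cut from implantation sites after the embryo and trophoblast had been removed. No group carried a treatment or an engineered allele, and each library was 1 animal. Libraries held between 2029729 and 6402731 reads, and the members contributed between 1117 and 6714 reads to each. Together they made up 85293 of 77077105 annotated reads, which is 0.111%, and between 0.0524% and 0.259% in single libraries.

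In eutherian mammals the noncoding transcripts of this region, miRNA hairpins included, are expressed from the maternal chromosome, and the protein genes DLK1, RTL1 and DIO3 from the paternal one. The hairpin of miR-127 lies antisense to RTL1, a retrotransposon-derived gene needed in the placenta, and its mature miRNA can pair along its whole length with the RTL1 transcript. The cluster is known for expression in placenta, brain and embryonic tissues and for low levels in most adult tissues. In the RefSeq gene table of the pig assembly Sscrofa11.1, which is newer than the assembly the study used, BEGAIN, DLK1, MEG3, MIR493, RTL1 with MIR127 inside it, MIR432 and MIR136 follow each other on chromosome 7.

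The bases that pair with a target most strictly are the seed, bases 2 to 8 of a miRNA, and a read that starts 1 base earlier or later has another seed. The most read sequence of each arm on which the results below turn is given 5′ to 3′ as deposited, with T for U and the seed in capitals. The main start is the 5′ end with most reads of an arm, and a start of -1 or +1 lies 1 base before or after it.
miR-127-3p: tCGGATCCgtctgagcttgg
miR-381-3p: tATACAAGgacaagctctct
miR-381-3p, start -1: aTATACAAggacaagctctct
miR-411-5p: aTAGTAGAccgtatagcgtac
miR-411-5p, start +1: tAGTAGACcgtatagcgtacg
miR-380: tATGTAATatggtccacgtct
miR-495: aAACAAACatggtgcacttctt
miR-758: tTTGTGACctggtccactaac
miR-655-3p: aTAATACAtggttaacctcttt
miR-411c: tGTATGTCaactgatccacagt
miR-299-3p: tATGTGGGacggtaaaccgctt
miR-299-3p, start -1: gTATGTGGgacggtaaaccgct
miR-299-5p: tGGTTTACcgtcccacatacat
The 41 members had 24 different 5′ starts and 24 different seeds, so no seed was shared between different starts. One of them, that of miR-381-3p at start -1, was also the seed of 2 annotated let-7 sequences outside the cluster. The most read sequences of the 20 arms were 20 to 23 bases long, and 9 of them began with T, 6 with A, 3 with C and 2 with G. Stretches of at least 7 identical bases were found in 10 of the 190 pairs of arms. The longest was the 11 bases tacacggtcga of miR-323-3p and miR-323b-3p, and miR-380 and miR-758 shared the 8 bases tggtccac.

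The tissue was checked with miRNAs known to mark cell types, as normalized reads, that is CPM (counts relative to the annotated reads of a library) after TMM scaling over all 30 libraries. Markers of stroma and smooth muscle were all found (5 of 5), led by miR-143 with a mean of 123150 normalized reads, as were markers of epithelium (7 of 7), led by miR-200c with 5209. The endothelial miR-126 averaged 3535, and the erythrocyte list (3 of 3) was led by miR-451 with 1267. Of 4 leukocyte markers 3 were found, the most abundant being miR-142 with 42.2, while miR-223 was not among the annotated sequences. One library stood apart in its stromal and muscle markers. In PD20 replicate 1 the stromal list summed to 639664 normalized reads, against 68733 to 213468 in the other 29 libraries, and the skeletal muscle list (3 of 5 found, nearly all of it miR-1) to 40186, against at most 16765. The main counts, sums and calls on PD20 are therefore also given without this library. In bulk endometrium, fewer cells of a type and less RNA per cell cannot be told apart. The libraries were sequenced in 3 pools, and which library belonged to which pool is not given in the sources used here, so that pool and group cannot be told apart.

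The members were low in abundance. Their median over the 41 sequences was 9.01 normalized reads, against 17.4 over all 873, and 22 of the 41 averaged under 10. The study annotated a sequence when at least 1 group had 10 reads in 4 of its libraries (3 for CD12). In the deposited data, 22 members reached this in all 6 groups, 18 in some of them and 1, miR-370, in none. Several entered through 1 group only. miR-495 did so through CD20, miR-127-5p through PD16, and miR-493-5p, miR-323b-3p, the 20 nt form of miR-409-3p and 3 minor forms of miR-381-3p through PD20. The rule counts raw reads, so depth and the 6 libraries of PD20 bear on it too, and a member can pass through a group without being highest there. miR-495 was highest in CD20, whereas miR-493-5p averaged 3.86 normalized reads in PD20 and 7.81 in PD16. Of the 41 members, 36 of the 41 had a read in each of the 30 libraries.

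A pair of arms held most of the reads. miR-127-3p averaged 581 ± 393 normalized reads (SD, n = 30) and made up 49.9% of all member reads, and miR-381-3p averaged 260 ± 65.2 with 23.1%. This order did not hold in every group: in CD12 miR-127-3p averaged 247 and miR-381-3p 262, and miR-381-3p was the higher in 3 of the 4 CD12 libraries and in 1 of the 5 of CD20. Next by mean over all libraries came miR-411-5p (47.4 ± 17.1), miR-136-3p (40.8 ± 11.1), miR-380 (38.5 ± 20.4), miR-382-3p (35.5 ± 12.2), miR-299-3p (29.6 ± 8.12), miR-409-5p (27.3 ± 25.02) and miR-409-3p (26.6 ± 13.7). From miR-411-5p down to miR-409-3p, each arm lay within 1 SD of its neighbours in this order. The other 11 arms averaged between 3.13 (miR-323b-3p) and 9.01 (miR-758). The reads of these arms are of similar length, but how readily each sequence is ligated into a library was not tested.

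**Figure D1:**
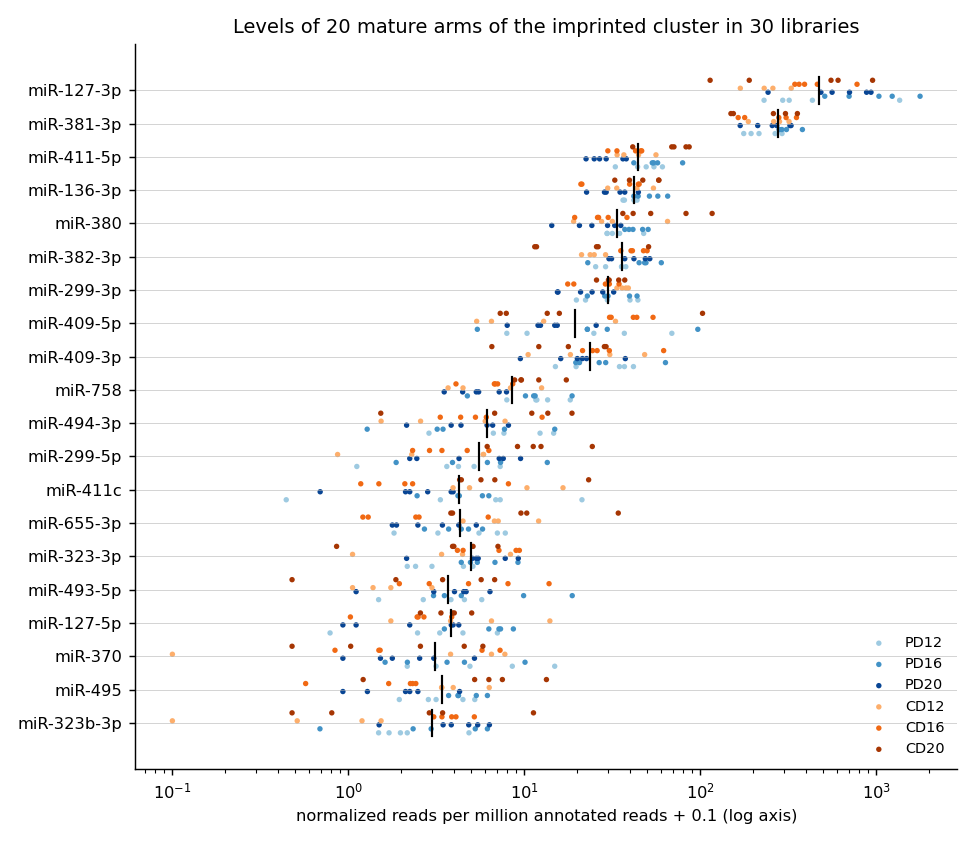
Level of the 20 cluster arms in each of the 30 libraries, as normalized reads plus 0.1 on a log axis, with 1 point per library coloured by group and a bar at the median. By mean over the libraries, miR-127-3p and miR-381-3p (581 and 260) lie above the other 18 arms, which average between 3.13 and 47.4.

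The most abundant member was the 20 nt form of miR-127-3p, which ranked 102nd of the 873 sequences and is shorter by 2 bases than the annotated 22 nt mature form. It averaged 528 ± 383 normalized reads, against 32.03 ± 13.1 for the 22 nt and 21.5 ± 9.88 for the 21 nt form. Its normalized reads were 340, 273, 1286, 213 and 196 in the 5 PD12 libraries and 431, 1170, 964, 1677 and 637 in PD16. In PD20 they were 899, 669, 536, 213, 451.5 and 831. Among cyclic gilts they were 139, 200, 285 and 218 in CD12, 708, 318, 344, 281 and 395 in CD16, and 81.4, 157, 474, 891 and 549 in CD20. The CD12 libraries were all low, those of PD16 were mostly high, and the groups of each day overlapped. By edgeR, the fitted log2 fold change of PD16 vs. CD16 was 1.16 ± 0.41 (SE), with an adjusted p = 0.336, so that it was not called.

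Summed over the 41 members, the level was 1063 ± 435 normalized reads in PD12 (SD, n = 5), 1721 ± 510 in PD16 (n = 5) and 1124 ± 331 in PD20 (n = 6). In cyclic gilts it was 783 ± 120 in CD12 (n = 4), 1014 ± 254 in CD16 (n = 5) and 1095 ± 407 in CD20 (n = 5). All 9 comparisons of groups overlapped in this sum. Without the miR-127 hairpin the group means lay between 486.5 (PD20) and 664 (PD16). In that smaller sum the PD16 libraries ranged from 579 to 743 and the PD20 libraries from 359 to 578, with no overlap, and the ratio of PD20 to PD16 was 0.733. Without PD20 replicate 1 the PD20 mean was 1056 for all members and 479 for the smaller sum, with the same range in the latter.

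**Figure D2:**
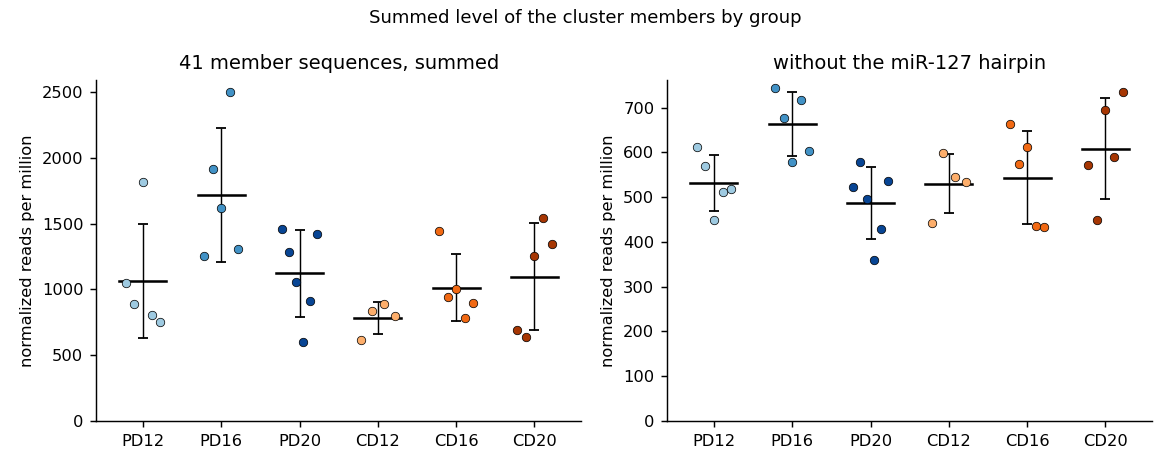
Summed normalized reads of the 41 members (left) and of the members without the miR-127 hairpin (right) by group, with 1 point per library and the mean ± SD. The groups overlap in the full sum, and without miR-127 the PD16 libraries (579 to 743) lie above those of PD20 (359 to 578).

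Each of the 9 comparisons was tested over all 873 sequences with edgeR's quasi-likelihood test, and a sequence was called DE at an adjusted p under 0.05 with an absolute log2 fold change over 1. No member was called in any of them. The share of all 873 sequences called was also small, at 0.229% for PD16 vs. PD12, 0.802% for PD20 vs. PD12, 0.573% for PD20 vs. PD16, 0.115% for CD16 vs. CD12, 0.458% for CD20 vs. CD12 and 0.458% for CD20 vs. CD16. Between pregnant and cyclic gilts of the same day it was 0% on D12, 0% on D16 and 1.49% on D20. At an unadjusted p under 0.05, the same test (edgeR) had 14, 14 and 15 members in the comparisons of pregnancy, in the order above (18.7%, 18.7% and 14.2% of all sequences), and 11, 11 and 8 in those of the cycle (23.9%, 23.9% and 21.2%). Within each status both comparisons with D12 rest on 1 joint p, so that their equal counts are the same members. Between pregnant and cyclic gilts the test had 2, 3 and 14 on D12, D16 and D20 (6.07%, 10.9% and 28.5%). With PD20 replicate 1 left out, edgeR had 13 in PD20 vs. PD12, 14 in PD20 vs. PD16 and 13 in PD20 vs. CD20 at an unadjusted p under 0.05 (17.9%, 13.9% and 24.6% of all). With DESeq2, 0 members were called on D12 and D16 between pregnant and cyclic gilts, where 0% and 0.802% of all sequences were called. DESeq2 called 9 in PD20 vs. CD20, all lower in PD20, with 15% of all sequences called, and 1, 2, 2, 2, 1 and 3 in the 6 comparisons of days, in the order above (2.86%, 5.27%, 1.72%, 5.84%, 6.41% and 8.25% of all). DESeq2 without PD20 replicate 1 called 8 in PD20 vs. CD20 (11.7% of all), 1 in PD20 vs. PD12 (4.93%) and 1 in PD20 vs. PD16 (1.72%).

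On D20 of pregnancy most estimates of the cluster lay below those of D16. PD20 tissue was cut from implantation sites and earlier uteri were flushed, so that day and sampling cannot be told apart in comparisons with PD20. Of the 41 members 37 had a lower estimate in PD20 vs. PD16 (90.2%, against 54.5% of all 873), and the median log2 fold change was -0.72, against -0.06. At an unadjusted p under 0.05 (edgeR) 15 members were lower and 0 higher, where 6.3% of all sequences were lower and 7.9% higher. The 21 nt form of miR-411-5p at start +1 had the lowest p of the members, with a log2 fold change of -1.24 ± 0.32 (SE) and an adjusted p = 0.113. Among members with a higher estimate, the 18 nt form of miR-381-3p, admitted through PD20 only, had the lowest p. Its estimate was 0.42 ± 0.55 (SE), with an adjusted p = 0.770 (edgeR). For miR-380 the estimate was -0.76, for the 21 nt form of miR-411-5p at the main start -1.04, for miR-758 -1.08, for the 22 nt form of miR-127-3p -1.001 and for its 21 nt form -1.41. Of these, miR-411-5p 21 nt at start +1, miR-380 and the 22 nt form of miR-127-3p did not overlap between PD16 and PD20, and they were the 3 members of which this held, against 1.72% of all sequences. Without PD20 replicate 1 the estimate was lower in 37 of 41 again, with a median of -0.73, and 5 members were apart, all lower in PD20 (3.32% of all).

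Between D12 and the later days of pregnancy the estimates went both ways. Higher estimates in PD16 vs. PD12 were found for 32 of 41 (78%, against 53.3% of all), with a median log2 fold change of 0.38, against 0.05 over all. In PD20 vs. PD12 the median was -0.40, against -0.01. Since the later days were tested together against D12, a sequence has a single p for both. For the 21 nt form of miR-127-3p the joint adjusted p was 0.0830 (edgeR), with log2 fold changes of 0.17 ± 0.39 on D16 and -1.25 ± 0.38 on D20. The 20 nt form of miR-381-3p at start -1, admitted through PD20 only, had an estimate of 1.89 ± 0.51 on D20 and an adjusted p = 0.103, and miR-758 one of -1.16. The groups did not overlap for 1 member in PD16 vs. PD12 (1.83% of all sequences) and for 2 in PD20 vs. PD12 (3.32% of all). These 2 were miR-758, lower in PD20, and the 20 nt form of miR-381-3p at start -1, higher in PD20, the group that admitted it. The median of PD20 vs. PD12 was -0.49 without PD20 replicate 1, and again 2 members were apart (5.5% of all).

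Over the estrous cycle most estimates on D20 lay above those on D12, in 28 of the 41 members (68.3%, against 54.2% of all sequences). The members' median log2 fold change was 0.16 for CD16 vs. CD12, 0.53 for CD20 vs. CD12 and 0.07 for CD20 vs. CD16, against 0.03, 0.09 and -0.03 over all sequences. Leaving out 1 library moved these medians to between 0.03 and 0.23, 0.22 and 0.54, and -0.06 and 0.28. At 10 CPM or more, or with isomiRs summed, that of CD16 vs. CD12 was -0.14 (-0.09 and -0.08 over all). With all deposited reads as library size the 3 medians were 0.28, 0.88 and 0.37, against 0.16, 0.47 and 0.23 over all. miR-299-5p had 2.19, 0.769, 5.74 and 5.77 normalized reads in CD12 and 24.2, 12.3, 6.05, 11.1 and 9.05 in CD20, so that these groups did not overlap. Its log2 fold change was 1.82 ± 0.60 (SE), with a joint adjusted p = 0.121 (edgeR). From the opposite arm, miR-299-3p at start -1 was lower in CD20 vs. CD12 by estimate, at -1.30 ± 0.46, with an adjusted p = 0.175 (edgeR), and its groups did not overlap either. No other member was apart in this comparison, in which 4.47% of all sequences were. miR-655-3p had an estimate of 2.14 ± 0.65 in CD20 vs. CD16 with an adjusted p = 0.0957 (edgeR), and here replicate 1 of CD20 alone held 34.1 normalized reads, against 3.72 to 10.2 in the other 4. In CD16 vs. CD12, 6 members did not overlap (5.5% of all sequences), of which 5 were higher in CD16 and 1, miR-495, lower, and in CD20 vs. CD16 2 did not, miR-758 and miR-411-5p 21 nt at the main start (4.93% of all).

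Pregnant and cyclic gilts were compared on each day. On D12 the members' median log2 fold change was 0.16 (0.04 over all sequences) and no member was apart, against 2.18% of all. With all deposited reads as library size this median was 0.46, against 0.32 over all. On D16, 32 of 41 had a higher estimate in PD16 than in CD16 (78%, against 51.2% of all), with a median of 0.30, against 0.03. miR-495 and miR-411-5p 21 nt at start +1 did not overlap on D16, both higher in PD16 (1.72% of all sequences were apart). On D20 the direction was the opposite one, with 25 of 41 lower (61%, against 51.4% of all) and a median of -0.39, against -0.03. Here 7 members did not overlap, all lower in PD20, where 4.81% of all sequences were apart. PD20 tissue came from implantation sites and CD20 tissue did not, so that pregnancy and site cannot be told apart. The 7 were miR-380, miR-758, miR-411c, the 23 nt form of miR-381-3p at start -1, and 3 forms of miR-411-5p. Without PD20 replicate 1, 26 of 41 were lower, with a median of -0.46, and 8 members were apart, all lower in PD20 (6.87% of all).

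Members of less read arms and minor forms had the lowest p of their direction in several of these tests, none of them called by edgeR. On D12 the 22 nt form of miR-127-3p had a log2 fold change of 1.16 ± 0.42 (SE, adjusted p = 0.678) and the 21 nt form of miR-381-3p one of -0.75 ± 0.42 (adjusted p = 0.687). On D16 miR-127-5p, admitted through PD16 only, had 1.30 ± 0.46 and an adjusted p = 0.336, and the 23 nt form of miR-409-3p -0.59 ± 0.61. On D20 the 20 nt form of miR-381-3p at start -1, admitted through PD20 only, had 1.27 ± 0.59 with an adjusted p = 0.167. Within the cycle, miR-655-3p had -1.41 ± 0.68 in CD16 vs. CD12 (joint adjusted p = 0.130) and the 24 nt form of miR-409-5p -1.65 ± 0.70 in CD20 vs. CD16 (adjusted p = 0.178).

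**Figure D3:**
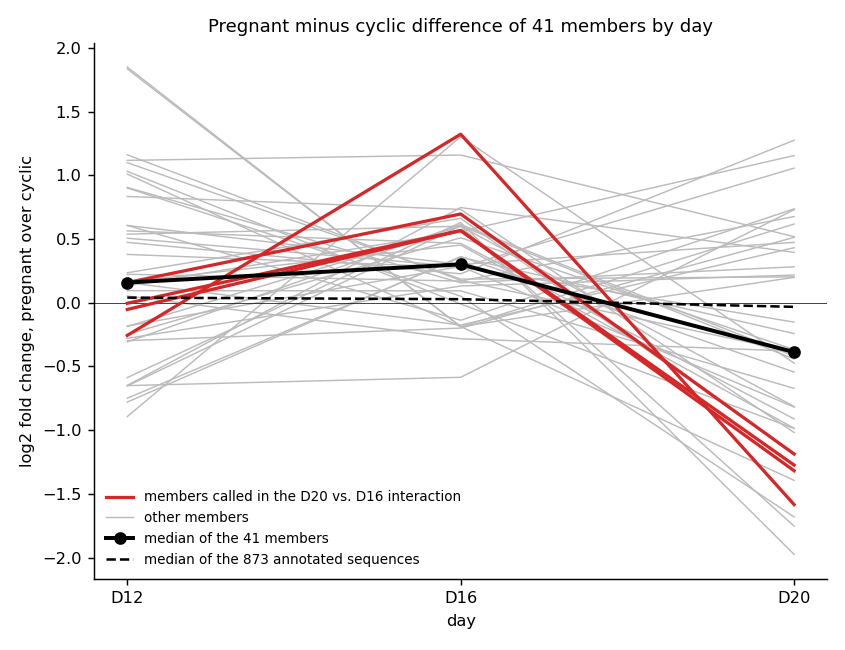
Fitted log2 fold change of pregnant over cyclic gilts on D12, D16 and D20, with 1 line per member, in red for the 4 members called in the D20 vs. D16 interaction, a black line for the median of the 41 members and a dashed one for that of all 873 sequences. The members' median runs from 0.16 over 0.30 to -0.39, and that of all sequences stays between 0.04 and -0.03.

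miR-411-5p, the product of the 5′ side of its hairpin, provided 3 of these 7. Summed over its forms, the arm averaged 29.5 ± 6.27 normalized reads in PD20 (SD, n = 6), with a range of 22.3 to 37.9 (30.9 ± 5.80 without replicate 1), against 70.0 ± 17.8 in CD20 (n = 5), with a range of 41.2 to 86.3. On D16 it averaged 57.1 ± 13.7 in PD16 and 39.6 ± 7.57 in CD16 (both n = 5). Its 21 nt form at the main start had 28.4, 21.8, 12.4, 18.2 and 27.1 normalized reads in PD16 and 14.5, 16.6, 9.91, 18.5 and 12.0 in CD16. On D20 it had 7.33, 16.0, 10.4, 16.1, 8.89 and 7.15 in PD20 and 25.8, 22.6, 29.8, 18.9 and 36.7 in CD20. The D20 groups did not overlap and those of D16 did. The fitted log2 fold change of PD20 vs. CD20 was -1.27 ± 0.35 (SE), with an adjusted p = 0.0581 (edgeR). For the 20 nt form at start +1 it was -1.68 ± 0.44 with an adjusted p = 0.0549 (edgeR), the lowest of the members in this comparison.

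Its 21 nt form at start +1 carries another seed, AGTAGAC in place of TAGTAGA. The means of its D16 and D20 groups had the same order as at the main start. It had 17.1, 11.8, 8.77, 10.1 and 11.9 normalized reads in PD16, 7.53, 8.50, 5.66, 5.56 and 8.38 in CD16, 5.58, 6.51, 3.32, 6.38, 3.91 and 5.79 in PD20, and 19.3, 13.04, 8.84, 6.68 and 12.4 in CD20. On both days the pregnant and cyclic libraries were apart, with PD16 above CD16 and PD20 below CD20. The estimates were 0.70 on D16 and -1.19 ± 0.39 on D20, the latter with an adjusted p = 0.0665 (edgeR).

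miR-380, from another hairpin of the cluster, was read at 41.3, 37.1, 39.2, 46.9 and 50.4 normalized reads in PD16 and at 29.9, 19.2, 38.2, 25.96 and 26.3 in CD16. On D20 it was read at 35.2, 32.5, 24.1, 20.5, 14.2 and 29.6 in PD20 and at 117, 52.2, 41.4, 36.2 and 82.8 in CD20. On D20 the groups were apart by a small margin, and replicates 1 and 5 of CD20 were the highest of all libraries. The log2 fold change was 0.57 on D16 and -1.32 ± 0.38 (SE) on D20, the latter with an adjusted p = 0.0630 (edgeR).

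miR-495 was among the least abundant members, with 1 to 35 reads in a library, and was annotated through CD20 only. Its normalized reads were 6.07, 4.13, 3.61, 4.10 and 5.23 in PD16, 2.15, 2.22, 0.472, 2.32 and 1.60 in CD16, 4.19, 1.18, 0.831, 2.01, 2.13 and 2.38 in PD20, and 13.3, 7.40, 5.12, 1.11 and 6.19 in CD20. PD16 was above CD16 in every library, whereas PD20 and CD20 overlapped through CD20 replicate 4. Estimates were 1.32 on D16 and -1.58 ± 0.54 on D20, with an adjusted p = 0.0762 on D20 (edgeR).

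miR-758 had 5.23, 7.10, 5.40, 4.36, 7.82 and 3.40 normalized reads in PD20 and 8.71, 12.0, 17.2, 9.47 and 9.52 in CD20, with no overlap. Its log2 fold change was 0.73 on D16 and -1.02 ± 0.37 on D20, with an adjusted p = 0.0967 on D20 (edgeR). miR-655-3p had -1.98 ± 0.58 with an adjusted p = 0.0630 (edgeR) on D20 and overlapped, and miR-411c had -1.75 ± 0.54 with an adjusted p = 0.0652 (edgeR). In none of these was the adjusted p under 0.05.

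Whether the difference between pregnant and cyclic gilts itself differed between days was tested as an interaction, in 1 edgeR fit over all 30 libraries. Between D20 and D16, 4 of the 41 members were called, all with a lower difference on D20 than on D16, where 2.41% of the 873 sequences were called (21, of which 13 or 1.49% were lower). They were miR-495, miR-380 and the 21 nt forms of miR-411-5p at the main start and at start +1. The interaction, as the log2 fold change of PD20 vs. CD20 less that of PD16 vs. CD16, was -2.97 ± 0.67 (SE) for miR-495, with an adjusted p = 0.0431 (edgeR). miR-495 was annotated through CD20 only, and a high CD20 lowers this interaction, so that its call is not independent of how it was selected. The interaction was -1.96 ± 0.47 for miR-380 and -1.94 ± 0.45 for miR-411-5p 21 nt at start +1, both with an adjusted p = 0.0431, and -1.88 ± 0.49 for its main start with an adjusted p = 0.0440 (edgeR). The next members by p were miR-655-3p (-2.68, adjusted p = 0.0529 by edgeR), miR-758 (-1.81, 0.0541) and the 22 nt form of miR-411-5p (-1.51, 0.0541).

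At an unadjusted p under 0.05 (edgeR) 17 members were lower and 0 higher in this interaction, against 11.8% lower and 7.33% higher of all sequences, and the median over the 41 was -0.83, against -0.10. Between D20 and D12, 0 members were called (0.115% of all), with 11 lower and 0 higher at an unadjusted p under 0.05 in the same test (9.62% and 6.76% of all). Between D16 and D12 it was also 0 (0% of all), with 4 higher and 1 lower (4.24% and 3.89% of all). DESeq2 called 7, 2 and 0 members in the 3 interactions (5.96%, 2.75% and 0% of all). In edgeR fits without PD20 replicate 1 there were 15 lower and 0 higher at an unadjusted p under 0.05 between D20 and D16 (9.85% and 7.79% of all) and 12 and 0 between D20 and D12 (8.25% and 5.5%). DESeq2 then called 7 and 1 members in these (5.38% and 2.18% of all). The lowest adjusted p of the members in the D20 vs. D12 interaction was 0.0577 (edgeR), for the 20 nt form of miR-411-5p at start +1 (-2.57 ± 0.63). The 3 interactions and the 2 comparisons behind each share libraries. In the interactions with D20, day and the implantation site of the PD20 tissue cannot be told apart.

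**Figure D4:**
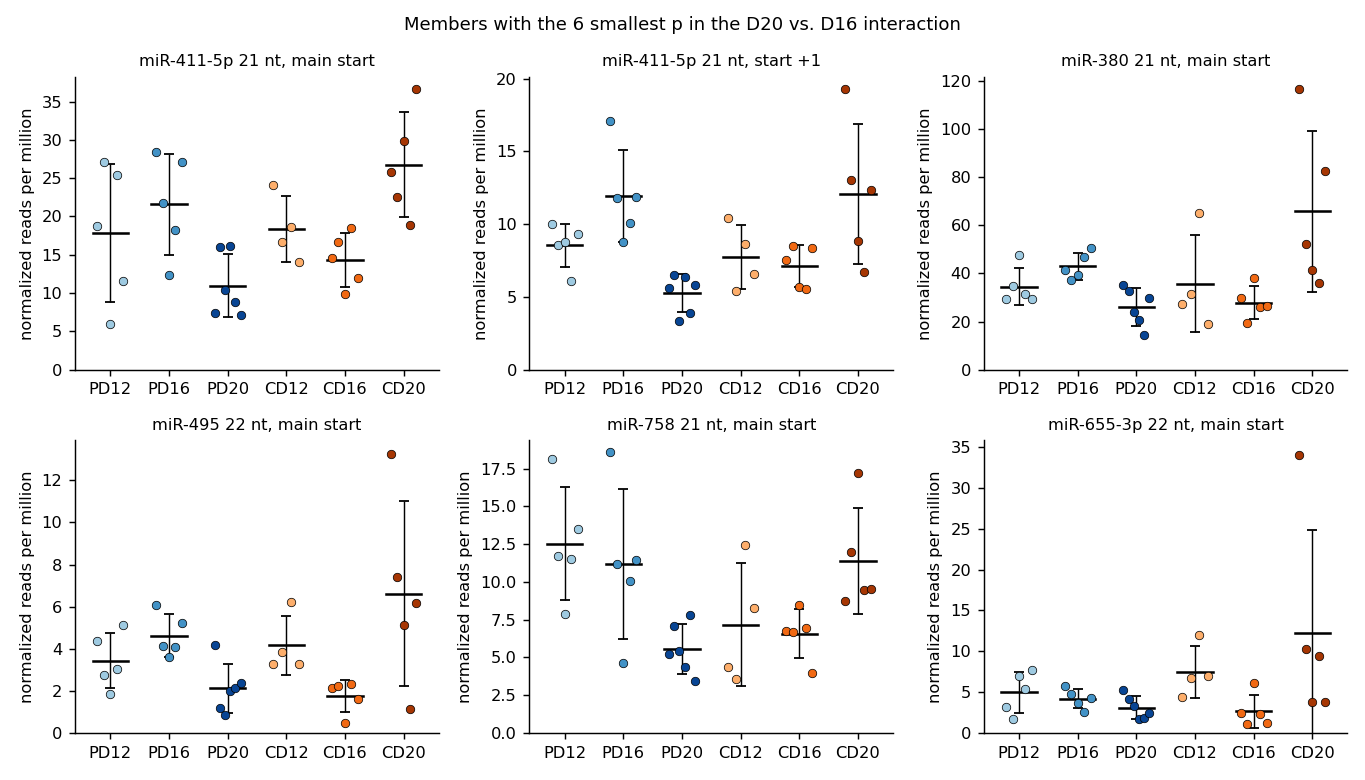
Normalized reads of the 6 members with the lowest p in the D20 vs. D16 interaction in the 6 groups, with 1 point per library and the mean ± SD. In miR-411-5p 21 nt at start +1 the PD16 libraries lie above those of CD16 and the PD20 libraries below those of CD20.

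Tested among the 33081 deposited sequences with at least 10 reads, in place of the 873, 0 of the 4 were called, with estimates of -3.11 for miR-495, -2.05 for miR-380, -2.06 for miR-411-5p at start +1 and -1.96 at its main start. Of all 33081 sequences 0 were called either, so that this 0 is no result about the members. With the replicate number as a block, edgeR called 0 members in this interaction (0% of all 873 sequences). The members' lowest adjusted p was then 0.0542 (edgeR) and their median -0.74. The 4 calls also depended on single libraries. Leaving out 1 library at a time gave between 0 and 5 called members, and 0 remained without any 1 of PD12 replicates 1 or 2, PD16 replicates 1 or 5, PD20 replicate 5, CD12 replicate 4, CD16 replicates 2 or 5, or CD20 replicates 1 or 2. In these 10 fits between 0% and 0.229% of all sequences were called, against 2.41% with every library. There were 2 called members without PD16 replicate 3 or 4 (0.458% and 0.573% of all), and 5 without CD20 replicate 3 or 4 (3.67% and 2.52%). Without PD20 replicate 1, the library that stood apart, 1 member was called: miR-495, the member annotated through CD20, at -3.21 with an adjusted p = 0.0443 (edgeR), where 0.229% of all sequences were called. The other 3 estimates were then -1.73, -1.89 and -1.99, with adjusted p = 0.0781, 0.0509 and 0.0509 (edgeR). By edgeR's quasi-likelihood test, no member was called in PD20 vs. CD20, PD20 vs. PD16 or PD20 vs. PD12 with or without PD20 replicate 1. DESeq2 called 9, 2 and 2 with this library (15%, 1.72% and 5.27% of all sequences). Without it DESeq2 called 8, 1 and 1 (11.7%, 1.72% and 4.93%). In PD20 vs. CD20, edgeR called 8 without CD20 replicate 4 (11.9% of all sequences). It called 2 without PD20 replicate 4 (13.3%) and 2 without CD20 replicate 5 (6.76%). The sums of the cluster by group changed with single libraries too: PD12 replicate 3 held 1814 normalized reads, against 751 to 1050 in the other PD12 libraries.

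Markers of other cell types are given for the same groups. The leukocyte list summed to 48.2 ± 18.7 normalized reads in CD16 and 122 ± 51.7 in CD20 (SD, n = 5 each), and to 83.2 ± 37.4 in PD16 (n = 5) and 110 ± 32.8 in PD20 (n = 6). The epithelial list averaged 13309 in CD16 and 8377 in CD20, and 13213 in PD16 and 11744 in PD20. For the endothelial miR-126 the means were 3197 in CD16, 4604 in CD20, 3406 in PD16 and 3913 in PD20, and for the stromal list they were 121021, 104534, 82221 and 195898. The last of these rests on PD20 replicate 1, without which it was 107144. The erythrocyte list averaged 1446 in CD16, 1076 in CD20, 1421 in PD16 and 2190 in PD20. Between these groups of the same day or the same status, the leukocyte list and miR-126 did not overlap in CD20 vs. CD16, both higher in CD20, and all other ranges overlapped. The part of these cell types in the results on the cluster was not tested.

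For 4 arms reads of a second start were listed, so that the share of the second start could be compared. Over the 30 libraries start -1 made up 43.9% ± 4.89 (SD) of the reads of miR-381-3p and 19.9% ± 6.42 of those of miR-299-3p, and start +1 32.8% ± 4.91 of miR-411-5p and 30.3% ± 8.95 of miR-136-3p. Of 36 exact two-sided permutation tests, 9 comparisons for each arm, 5 had an unadjusted p under 0.05 and 0 an adjusted one, the lowest being 0.143. With 36 tests, 1 difference alone cannot reach an adjusted p below 0.0779, so that these 0 say little. For miR-299-3p the share at start -1 was 19.7%, 25.9%, 27.1% and 31.03% in CD12 and 10.2%, 12.9%, 7.69%, 15.2% and 15.3% in CD20. These groups were apart, and p was 0.00794, the smallest the exact permutation of 5 against 4 animals can give (adjusted p = 0.143). For miR-381-3p it was 50.9% ± 2.68 in CD16 and 41.1% ± 2.78 in CD20 (n = 5 each), also apart and at the smallest exact permutation p of 0.00794 (adjusted p = 0.143).

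Both arms were listed for 3 hairpins, and their balance was expressed as log2 of 5p reads over 3p reads. It was -7.07 ± 1.05 for miR-127 (SD, n = 30), -2.53 ± 1.07 for miR-299 and -0.27 ± 1.45 for miR-409. Thus miR-127 was read almost only from its 3p arm, while for miR-409 libraries went both ways, from -2.89 to 2.52. Of 27 exact two-sided permutation tests 6 had an unadjusted p under 0.05 and 0 an adjusted one, the lowest being 0.107, and 1 difference alone cannot go below 0.0584 here. The groups were apart for miR-127 in CD16 vs. CD12, at -7.52 ± 0.45 (n = 5) and -5.55 ± 0.87 (n = 4), and for miR-299 in CD20 vs. CD12, at -1.45 ± 0.65 (n = 5) and -3.62 ± 1.37 (n = 4). Counting every read that shared the first 17 bases of a listed form, in place of the listed sequences, gave 5 adjusted p under 0.05 in the same exact permutation tests. Of these, 4 were for miR-127, which was lower in PD20 than in PD12, PD16 and CD20 and in CD16 than in CD12, and 1 for miR-299, higher in CD20 than in CD16. miR-127-5p, the 5p side of the first balance, was annotated through PD16 only, so that its comparison of PD20 with PD16 is not independent of that selection. The lowest of them was 0.0292. Without PD20 replicate 1 none of these exact permutation tests passed, the lowest adjusted p being 0.0536. With 5 PD20 animals against 5 the smallest exact permutation p is 0.00794, against 0.00216 with 6 against 5. This loss therefore says little about that library. For miR-127 the mean in PD20 was then -8.32, against -8.25 with it.

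Single-base variants of the members were counted among all deposited reads within the first 18 bases. Adenosine that has been deaminated to inosine, a known editing event of hairpins in this cluster, is read as G. Of 755 substitutions examined at the 14 starts with at least 1000 reads, those other than the A-to-G sites below had a median share of 0% and a 95th percentile of 0.175%. miR-411-5p stood out at A6G, counted from 1 at the 5′ end of its main start, which is base 5 of its seed. The unchanged and changed 22 nt reads, with the substituted base in capitals, were read 1039 and 280 times.
miR-411-5p, unchanged: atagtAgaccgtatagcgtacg
miR-411-5p, A6G: atagtGgaccgtatagcgtacg
The seed of the changed read, TAGTGGA in place of TAGTAGA, was that of none of the annotated sequences. Over all libraries 656 of 3647 reads with the main start carried G (17.99%), and in single libraries the share was 8.96% to 35.2%, with G present in all 30. At start +1, where the same base is position 5 (A5G), 259 of 1670 reads carried it (15.5%).

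The share of G was 16.9% ± 5.03 in PD12 (SD, n = 5), 16.6% ± 5.80 in PD16 (n = 5), 22.9% ± 7.95 in PD20 (n = 6; 22.3% without replicate 1), 18.7% ± 4.34 in CD12 (n = 4), 17.3% ± 4.37 in CD16 (n = 5) and 17.01% ± 5.64 in CD20 (n = 5). All groups overlapped. None of 9 exact two-sided permutation tests had a p under 0.05, the lowest being 0.173. It was higher at the main start than at start +1 in 23 of the 30 libraries, by 2.27 ± 4.87 percentage points (SD). The origin of the G was not tested.

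Reads with G in place of A were also found beside miR-381-3p. At start -1, 391 of 12703 reads carried A5G (3.08%, and 0.881% to 6.62% in single libraries).
miR-381-3p, start -1, unchanged: atatAcaaggacaagctctct
miR-381-3p, start -1, A5G: atatGcaaggacaagctctct
At the main start 1892 of 17802 reads (10.6%) carried the corresponding A4G, more than at start -1 in 30 of 30 libraries. That read, however, was itself among the annotated sequences under the name of another hairpin of the cluster, miR-300, and it is not counted among the 755. A changed miR-381-3p and a miR-300 read, whose start could shift in the same way, cannot be told apart at either start. The next substitution by share was C10T of miR-411-5p (1.03%, 31 reads in 15 libraries).

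**Figure D5:**
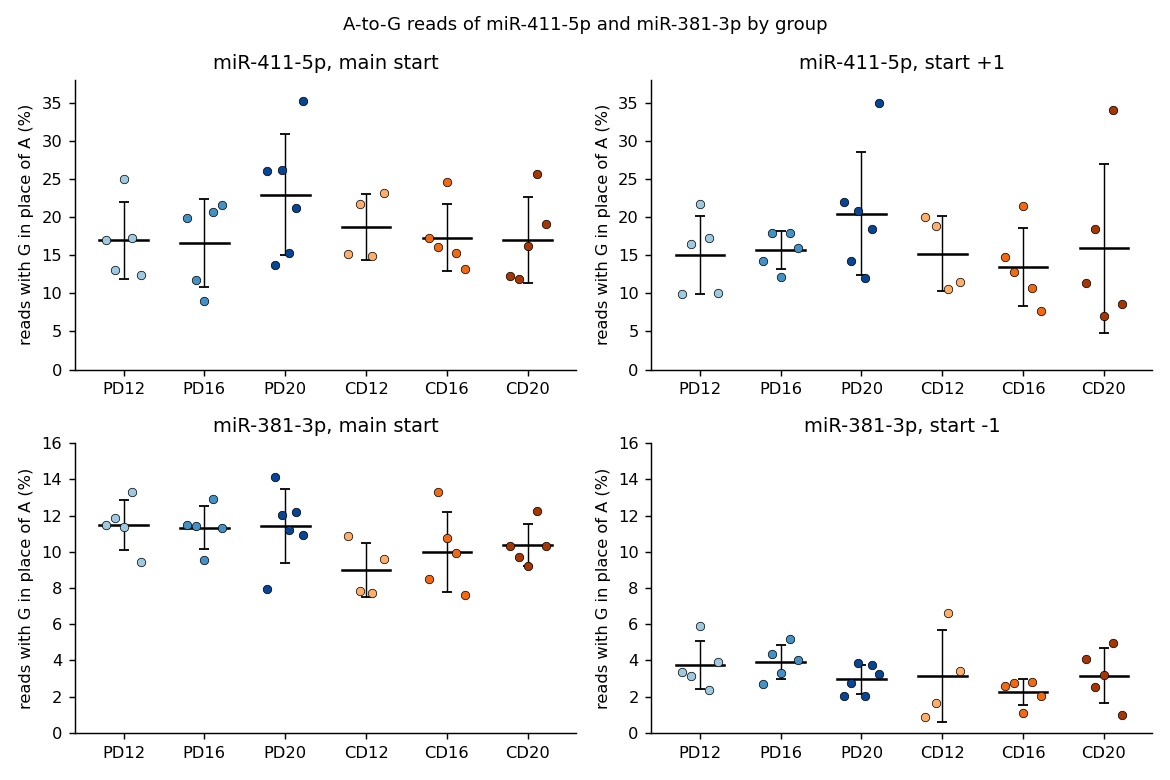
Share of reads with G in place of A, in percent, at both starts of miR-411-5p (top) and of miR-381-3p (bottom) by group, with 1 point per library and the mean ± SD. At the main start of miR-411-5p the libraries lie between 8.96% and 35.2%, and at that of miR-381-3p, at both starts of which a miR-300 read cannot be told apart, between 7.60% and 14.2%.

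Members of the cluster did not vary closely together from animal to animal. On log2 (normalized reads + 1) after removing group means, the 136 pairs of the 17 hairpins had a median Pearson r of 0.03 over the 30 libraries, from -0.66 to 0.70, against 0.00 for all pairs of annotated sequences. Sequences with the same start had a median r of 0.36 (30 pairs), those of the same arm with another start 0.35 (27 pairs), and those of the other arm of the same hairpin -0.09 (14 pairs). The pairs share libraries and depth, and most members had few reads, so these values describe the tables only. With all deposited reads as library size the median over hairpins was 0.10 and that over all annotated pairs 0.08. Of the 272 other annotated sequences with at least 50 normalized reads, the one most like the summed members was a 20 nt sequence of miR-148b (r = 0.76 over 30 libraries), followed by sequences of miR-30d of 23 nt and 24 nt (0.71 each), miR-148b-3p (0.71) and miR-106b (0.69). miR-127-3p made up 49.9% of the member reads behind that sum.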

How the data were processed

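RNA of 30 endometrial samples was made into libraries with a small RNA ligation kit and sequenced in 2 runs, which the authors joined. They kept reads with an adapter, at least 17 bases, no unknown base and a phred score over 20 at every base, and collapsed identical reads. The authors deposited 1 table per library, with raw counts of each distinct sequence and no normalization. In the study, sequences that passed its read filter were annotated at 100% identity against miRBase v.18 and the pig genome, and differential expression was tested with edgeR. Sequences of the 873 were taken from its supplementary list and counted here by exact match.

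Comparisons used edgeR 4.0.16 (R 4.3.3), with TMM factors over the 873 sequences and annotated reads as library size, quasi-likelihood F tests and Benjamini-Hochberg adjustment over the 873. Within each status the later days were tested in a single F test against D12. Standard errors were derived from the fold change and F. Normalized reads are CPM relative to annotated reads with TMM factors of all 30 libraries. Start shares, arm balance (log2 with a pseudocount of 0.5) and G shares were tested with exact two-sided permutations of the animals, adjusted within 36, 27 and 9 tests (Python 3.11.15, scipy 1.17.1). DESeq2 1.42.0 was an alternative. The scripts were tested on simulated data. The text names the most read sequence of each arm and its other starts, members called in any comparison, the member with the lowest p in each direction of a comparison, miR-380, miR-495 and miR-758, and sequences most like the summed members. miR-655-3p and miR-411c on D20 and other members close to the threshold were named after their values were seen. The cluster, its members and the marker lists were chosen with earlier results of these data known.

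Replicates were separate animals. Replicate numbers do not pair them: 70 same-numbered pairs of libraries across groups had a median correlation of -0.04. Within groups no library was a duplicate of another (61 pairs of replicates, lowest chi-square per degree of freedom 80.9). Pairs across groups were not checked in this way. Reads carry no molecular identifiers, so counts include amplification, and statements on depth cover counting error only.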

Additional observations from a re-analysis of the deposited data

Results flagged for a closer look

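In groups of 4 to 6 libraries, 5 of 114 sets of values had 1 library far from the others by Dixon's criterion, which chance alone passes in about 1 of 20 sets. The summed members were 1814 normalized reads in PD12 replicate 3, against 751 to 1050 in the other 4. miR-127-3p was 1358 in the same library, against 230 to 433, and 777 in CD16 replicate 1, against 344 to 462. miR-381-3p was 380 in PD16 replicate 2, against 281 to 309. The arm balance of miR-127 was -9.08 in PD20 replicate 3, against -7.86 to -7.31 in the other 5.

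In 4 members the difference between pregnant and cyclic gilts differed between D20 and D16 by the interaction test (edgeR), where 2.41% of all sequences were called. Leaving out 1 library gave 0 to 5 such members, with 0 in 10 of 30 fits, and 1, miR-495, without PD20 replicate 1. The 4 were miR-495 (-2.97), miR-411-5p 21 nt at the main start (-1.88) and at start +1 (-1.94) and miR-380 (-1.96), whose adjusted p lay between 0.0431 and 0.0440. miR-495 had 1 to 35 reads in a library and was annotated through CD20, the group where it was highest. The cause of the difference was not tested.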

How the results depend on the processing

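Values under another setting were counted for the named members and for the start and arm tests with an unadjusted permutation p under 0.05. Of these, 766 kept their side of the threshold, 36 passed it anew, 64 no longer passed and 6 changed sign. miR-127-3p 21 nt in PD16 vs. PD12 (0.17) was -0.016 over all deposited sequences and ranged from -0.15 (without PD16 replicate 4) to 0.36 without 1 library. miR-758 in PD16 vs. PD12 (-0.07) ranged from -0.40 to 0.031, positive without PD12 replicate 1 or PD16 replicate 3. miR-299-5p in CD16 vs. CD12 (0.23) ranged from -0.15 to 0.54, negative without CD12 replicate 2 or CD16 replicate 1.

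With edgeR's likelihood ratio test, members called were 1 in PD16 vs. PD12, 2 in PD20 vs. PD12, 2 in PD20 vs. PD16, 1 in CD16 vs. CD12, 1 in CD20 vs. CD12, 2 in CD20 vs. CD16, 7 in PD20 vs. CD20, and 2 and 7 in the D20 vs. D12 and D20 vs. D16 interactions. The likelihood ratio test called, in this order, 2.75%, 5.27%, 2.41%, 5.27%, 5.73%, 6.41%, 14.2%, 1.83% and 5.38% of all sequences. With DESeq2 the members called were 1, 2, 2, 2, 1, 3, 9, 2 and 7 in the same order. DESeq2 called 2.86%, 5.27%, 1.72%, 5.84%, 6.41%, 8.25%, 15%, 2.75% and 5.96% of all sequences in these. One fit of all libraries gave 1 in PD20 vs. PD12 (2.06% of all sequences called), 1 in PD20 vs. PD16 (1.26%), 2 in CD16 vs. CD12 (4.01%), 1 in CD20 vs. CD12 (5.73%), 3 in CD20 vs. CD16 (7.33%) and 6 in PD20 vs. CD20 (11.2%), and single contrasts gave 1 in PD20 vs. PD12 (2.86%). With all deposited reads as library size 2 were called in PD20 vs. CD20, 1 in the D20 vs. D12 interaction and 7 in that of D20 vs. D16 (1.83%, 0.458% and 2.29% of all). That scaling moved the median over all sequences, in the D20 vs. D16 interaction to -0.36 from -0.10 and in CD20 vs. CD12 to 0.47 from 0.09. Under it the members' median was 0.41 in PD16 vs. CD16 and -0.65 in PD20 vs. CD20, against 0.12 and -0.27 over all. The current quasi-likelihood method, added after the data were seen, gave 2, 1 and 7 as well (4.7%, 0.916% and 3.21%). With isomiRs summed 1 of 20 arms was called in PD20 vs. CD20 (7.48% of 254) and 3, all lower, in the D20 vs. D16 interaction (2.76%). Testing all 33081 deposited sequences with enough reads left 0 in the D20 vs. D16 interaction (0% of all), with estimates from -3.11 to -1.96 for the 4. With the replicate number as a block, 0 members were called in that interaction (0% of all sequences) and in every other comparison (0% to 0.573%). The pairing check found that 8 of 30 libraries correlated best with their own number, and the labels give that number no meaning beyond a name. The cause of these shifts was not tested.

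Without each library in turn, the members called by edgeR's quasi-likelihood test ranged from 0 to 1 in PD16 vs. PD12 and PD20 vs. PD12. There was 1 each without PD12 replicate 3, with 1.72% and 2.41% of all sequences called. In CD20 vs. CD16 they ranged from 0 to 2 (2 without CD20 replicate 3, 4.12% of all, and 1 without replicate 4, 2.18%). In PD16 vs. CD16 they ranged from 0 to 1 (1 without PD16 replicate 1, 4.12% of all), and in PD20 vs. CD20 from 0 to 8. In the D20 vs. D12 interaction they ranged from 0 to 1 (1 in 5 fits, 0.573% to 0.916% of all). In that of D20 vs. D16 they ranged from 0 to 5, and in the others they stayed at 0. Arm balance tests passing the threshold were 5 with reads sharing 17 bases. G share tests stayed at 0 without each library, and so did start and arm tests, in which 1 difference alone cannot pass. Depth limits the rarer members, 22 of which averaged under 10 normalized reads.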

Other observations

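The 3′ ends of the most read arms are given as a description, chosen after the values were seen and without a test. Among the listed forms of miR-127-3p, the 20 nt form made up 83.3% ± 8.33 in PD12 (SD, 72.5% to 94.7%), 91.6% ± 4.25 in PD16 (84.6% to 95.02%) and 93.7% ± 3.08 in PD20 (87.8% to 96.3%). In cyclic gilts it made up 84.96% ± 2.23 in CD12 (82.1% to 86.9%), 86.6% ± 3.51 in CD16 (81.6% to 91.1%) and 84.9% ± 8.46 in CD20 (71.7% to 93.5%). Most of these groups overlapped, but PD20 lay above CD12. For the 20 nt form of miR-381-3p at its main start the group means lay between 24.9% ± 14.5 (CD12) and 49.3% ± 5.39 (CD16). Counted over all deposited reads of the arm, miR-127-3p averaged between 20.6 and 20.8 nt in the groups. The 139 other annotated arms with enough reads in every library averaged between 22.14 and 22.18 nt in every group.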
